A study of Mus musculus with 6 samples.

Results

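The replication-dependent histone genes encode the bulk of the H1, H2A, H2B, H3 and H4 proteins that package newly copied DNA. They were taken as every gene row whose symbol follows the mouse naming of these families (H1f1 to H1f5, and the H2ac, H2bc, H3c and H4c series), without pseudogene symbols, which gave 62 genes of 42396 in the count tables. These 62 comprised 5 H1, 17 H2A, 16 H2B, 12 H3 and 12 H4 genes. The H1 set and most of the others lie in the cluster on chromosome 13 (52 genes), and 10 lie in the cluster on chromosome 3. After the filter on low counts, 57 were tested.

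The study asked what loss of the circular RNA circRmst does to gene expression in developing midbrain neurons. Primary ventral midbrain cells of wild-type mouse embryos at embryonic day 14 were plated at 150000 cells per well and infected on that day with lentivirus at a multiplicity of infection of 5. The 3 control libraries carried pll3.7-Scr2, a scramble control, and the 3 knockdown libraries carried pll3.7-shRmstI, directed against circRmst. RNA was taken at day 3 in vitro from 2 to 3 wells per condition. The labels give 3 independent cultures but not which libraries share one, so p-values measure the spread between these libraries. Both groups received a lentiviral vector, and an uninfected group was not analysed here. Total RNA was depleted of ribosomal RNA without selection for poly(A) tails, which keeps histone transcripts in the library.

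Most cellular messenger RNAs end in a poly(A) tail, but replication-dependent histone messages end just after a short conserved stem-loop. The stem-loop is bound by SLBP, and the pre-mRNA is cleaved downstream with the help of the U7 small nuclear ribonucleoprotein. Their levels are known to climb when a cell enters S phase and to drop when DNA synthesis ends, so in neural tissue they come chiefly from dividing progenitors. Replacement histones such as H3.3 are made outside S phase from ordinary polyadenylated messages.

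The stem-loops are shown first because they define how these messages end, and because they differ between histone classes. A perfect stem of 6 bases, opening with GGNNCT and closing with AGNNCC around a loop of 4 bases, was searched on the transcript strand. It was found in the GENCODE transcripts of 42 of the 62 genes and in 273 of 55450 genes of that annotation (0.492%). The other 20 genes were matched to a transcript without this exact motif. Some of these transcripts were shorter than the RefSeq gene span, such as H4c12 (312 against 409 bases) and H2bc18 (381 against 493). There the end of the message may lie outside the searched sequence. A missing match therefore does not show that a gene lacks the stem-loop. In the lines that follow, capitals mark the stem and loop, lower case marks the flanking bases, and the sequences are written 5′ to 3′ as DNA letters.
H1f4, chr13:23621777-23621802, minus strand: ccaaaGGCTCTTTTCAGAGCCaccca
H2ac18, chr3:96246027-96246052, plus strand: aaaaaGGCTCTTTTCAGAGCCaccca
H2bc12, chr13:22036295-22036320, plus strand: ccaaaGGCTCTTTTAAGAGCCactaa
H3c14, chr3:96247322-96247347, plus strand: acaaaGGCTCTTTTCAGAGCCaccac
H4c4, chr13:23581945-23581970, plus strand: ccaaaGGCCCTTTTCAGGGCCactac
H4c11, chr13:21735432-21735457, plus strand: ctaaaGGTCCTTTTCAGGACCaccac
All 31 H1, H2A, H2B and H3 genes with the motif carried the left stem GGCTCT. The 11 H4 genes with the motif carried GGCCCT in 9 cases and GGTCCT in the other 2. Coordinates are those of GRCm38.

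Promoters also differed by class, and an H2B and an H4 example are shown because they carry different motifs. Capitals mark the motifs searched, and each stretch is the 150 bases before the RefSeq start site on GRCm38.p6.
H2bc18, chr3:96269550-96269699, plus strand: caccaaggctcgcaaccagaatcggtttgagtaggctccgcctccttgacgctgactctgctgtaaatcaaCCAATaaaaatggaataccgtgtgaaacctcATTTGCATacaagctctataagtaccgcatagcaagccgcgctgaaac
H4c12, chr13:21750554-21750703, minus strand: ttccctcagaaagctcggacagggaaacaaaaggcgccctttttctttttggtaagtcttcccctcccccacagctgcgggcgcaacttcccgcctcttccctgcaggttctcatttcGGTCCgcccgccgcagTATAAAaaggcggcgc
A RefSeq promoter was matched for 57 of the 62 genes and searched over the 250 bases before the start site, with CCAAT, ATTTGCAT and GGTCC on both strands and TATAAA on the sense strand. Motifs overlapped one another in 2 of these promoters. A gene with several promoters counted once, as having a motif if any of them held it. CCAAT was found in 82.5% of the histone genes with a promoter and in 37.5% of all 27025 genes with one. By class it was in 5 of 5 H1, 17 of 17 H2A, 14 of 14 H2B and 8 of 10 H3 genes. In H4 it was in only 3 of 11 (27.3%). TATAAA was found in 40.4% against 8.94%. The octamer ATTTGCAT is the site that the factor OCT1 (encoded by Pou2f1) is known to bind. It was found in 7 of 14 H2B and 6 of 17 H2A genes, in 0 genes of the other 3 classes, and in 1.81% of all genes with a promoter. GGTCC, the core of the H4 element that HINFP is known to bind, was found in 10 of 11 H4 genes. It is short, however, and stood in 42.9% of all genes with a promoter. Each match is a string of letters in a window and not a measured binding site. The windows of H2A and H2B genes that start close together in opposite directions overlap. In that case 1 site can count for both genes, as the octamer does for H2ac8 and H2bc8.

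The libraries held 27248934 to 43646521 counts. Rmst, the host gene of the targeted circle, stood at 115, 117 and 124 CPM (counts scaled to a common library size with the TMM method) in the controls and 105, 97.1 and 115 CPM in the knockdowns, a log2 fold change of -0.16 (SE 0.10, n = 3 per group, edgeR quasi-likelihood test, unadjusted p = 0.117). This gene-level count does not measure the circle. The label gives the cells as dopamine neurons. All 8 markers of that type were detected, with Th at 36.9 to 60.9 CPM, and summed to 431 to 517 CPM. The 7 general neuron markers summed to 4611 to 5773 CPM. In the same libraries 7 markers of radial glia and progenitors summed to 1258 to 1567 CPM and 20 mitosis genes to 313 to 512 CPM. Transcripts of other cell types and of dividing cells were thus present. The mitosis gene Kif11 and the replication gene Cdc45 were listed at 0 in all 6 libraries.

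Together the histone genes took 0.159%, 0.226% and 0.212% of all counts in controls 1, 2 and 3, and 0.184%, 0.248% and 0.141% in knockdowns 1, 2 and 3. Exact binomial 95% intervals, which cover counting error only, ran from 0.158 to 0.160% for control 1 and from 0.140 to 0.142% for knockdown 3. Knockdown 2 was the highest library and knockdown 3 the lowest, and the groups overlapped. The summed level was 1991 ± 329 CPM in the controls and 1917 ± 590 CPM in the knockdowns (mean ± SD, n = 3). In whole cultures, fewer dividing cells and less histone RNA per dividing cell cannot be told apart.

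**Figure D1:**
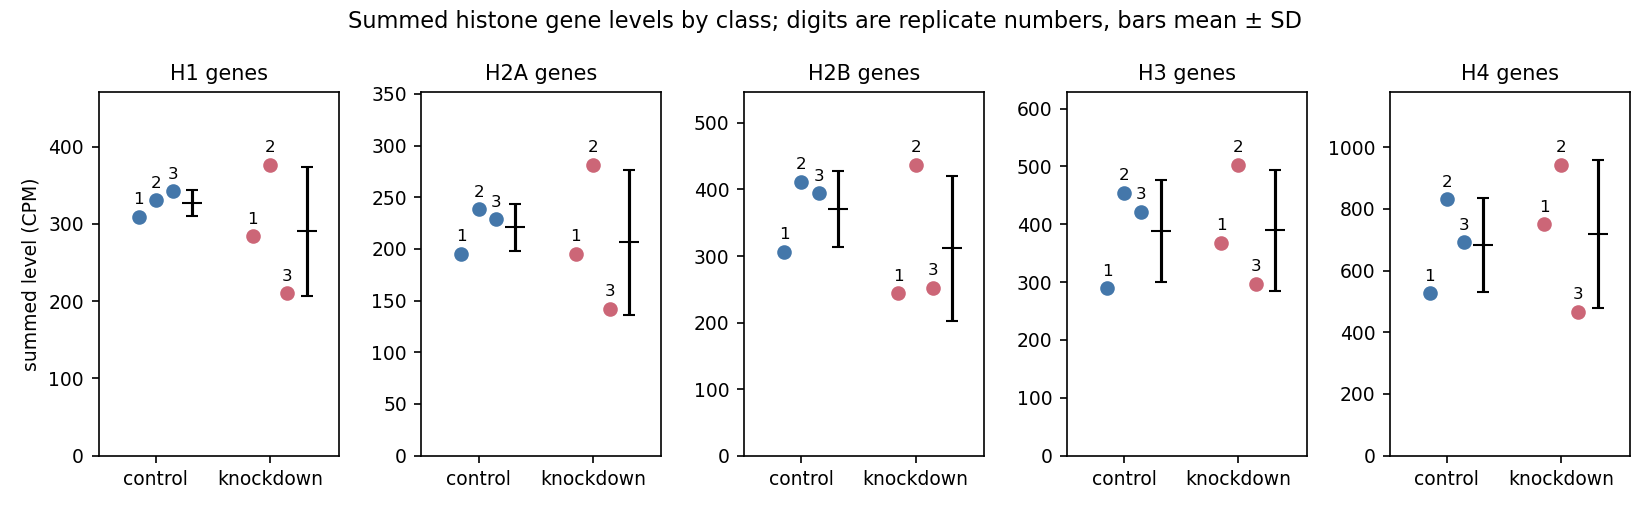
Summed level of each histone class in CPM, with 1 point per library, its replicate number above it and the mean ± SD (n = 3) in black. In every class the groups overlap, and the knockdown libraries range from 466 to 943 CPM for H4 genes.

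No histone gene passed the threshold for the knockdown. With edgeR's quasi-likelihood test and Benjamini-Hochberg adjustment over 17439 genes, 0 of 57 tested members were below an adjusted p of 0.05, against 0% of all genes tested. The smallest adjusted p among members was 1.00. At an unadjusted p under 0.05 there were 2 members, both lower in the knockdown, against 1.10% of all genes in either direction and 0.717% lower. DESeq2 also called 0 members, with 3 of 62 at an unadjusted p under 0.05, against 0.615% of the 28463 genes it took. The groups did not overlap for 1 member, H3c14, against 5.20% of all genes.

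The tested members had a median log2 fold change of -0.10, with 41 below the control mean and 16 above, beside a median of -0.01 and 51.9% below over all genes tested. Without knockdown 3 the count below was 22 of 57 and the median 0.07, and without knockdown 2 it was 55 of 57 with a median of -0.43. These counts are not independent observations, because the members share libraries and sequence. The 95% intervals of 52 of 57 members lay within a 2-fold difference in either direction, and those of 21 lay within 1.5-fold.

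**Figure D2:**
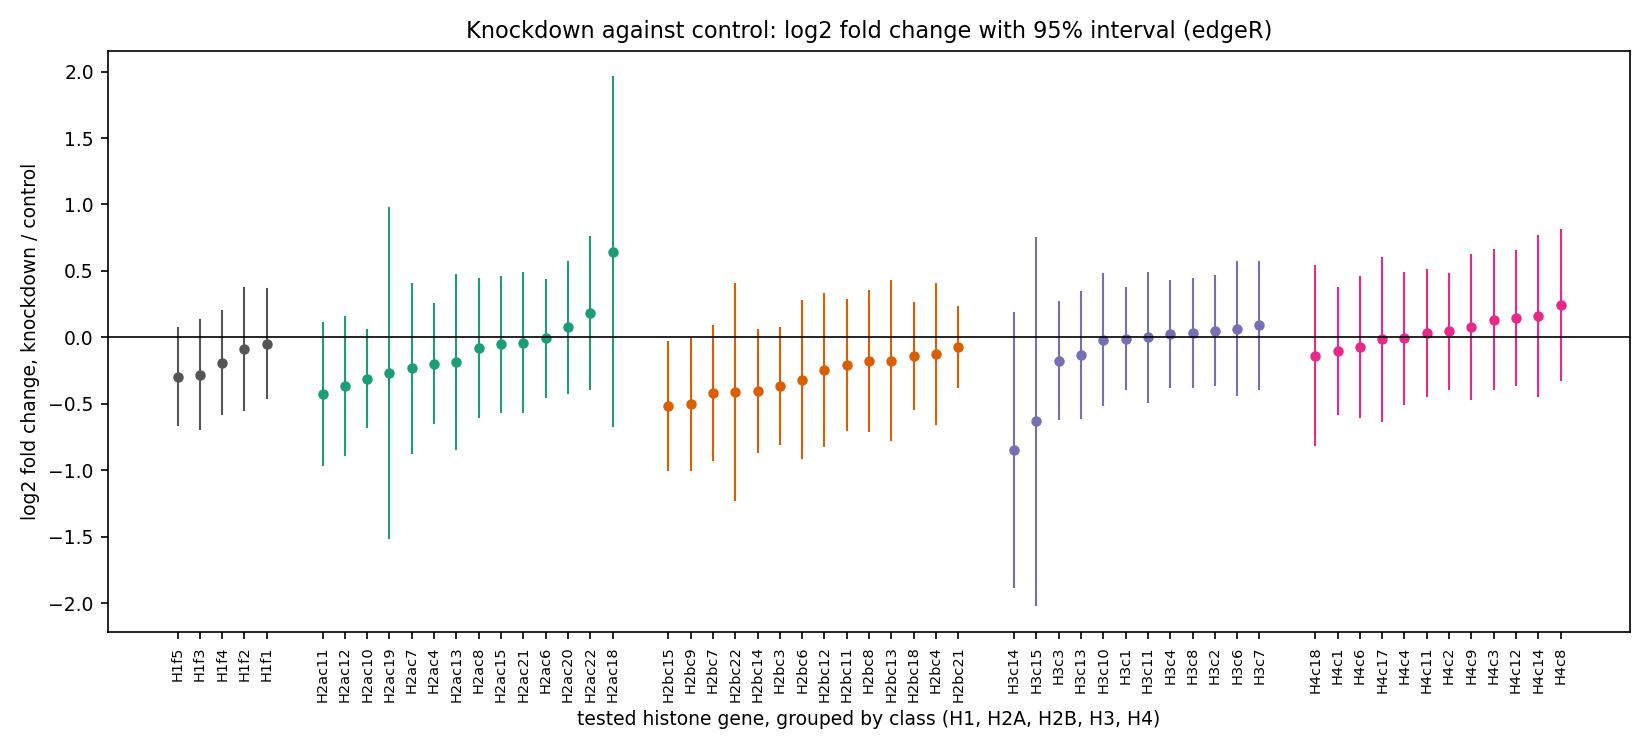
Log2 fold change (knockdown over control) of each of the 57 tested members with its 95% interval from edgeR, grouped by class and sorted within it. All 14 tested H2B genes had estimates below 0, with intervals that crossed 0 in 12 of them.

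H1 linker histones bind the DNA between nucleosomes. H1f4 had the highest H1 level, at 129, 153 and 151 CPM in the controls and 118, 168 and 94.6 CPM in the knockdowns. Knockdown 2 was its highest and knockdown 3 its lowest library, and its log2 fold change was -0.19 (SE 0.18, unadjusted p = 0.306). H1f5 had the smallest H1 p, with 35.6, 25.4 and 27.6 CPM against 24.7, 28.3 and 19.3 CPM and a log2 fold change of -0.30 (SE 0.17, unadjusted p = 0.101). All 5 H1 genes had estimates below 0, with a class median of -0.19 and H1f2 (-0.09) and H1f3 (-0.28) between the extremes.

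H2A and H2B pair as dimers on the outside of the nucleosome core. Of 14 tested H2A genes, 11 had estimates below 0 and the class median was -0.13. H2ac11 stood at 6.78, 8.14 and 9.67 CPM in the controls and 5.88, 8.30 and 4.13 CPM in the knockdowns. The groups overlapped through knockdown 2, and the log2 fold change was -0.43 (SE 0.24, unadjusted p = 0.107). H2ac10 gave -0.31 (unadjusted p = 0.090), H2ac13 -0.19 and H2ac20 0.08.

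H2B was the class with the lowest median, -0.28, and all 14 tested H2B genes were below 0. With 1 library left out, 12 to 14 of the 14 were below 0, with 12 of them without knockdown 1. H2bc15 stood at 27.0, 29.2 and 31.8 CPM in the controls and 14.8, 29.7 and 17.1 CPM in the knockdowns. Knockdowns 1 and 3 lay below every control and knockdown 2 lay among them. Its log2 fold change was -0.52 (SE 0.22, unadjusted p = 0.037). H2bc9 stood at 9.39, 6.09 and 6.62 CPM against 5.17, 6.47 and 4.04 CPM, with a log2 fold change of -0.50 (unadjusted p = 0.048).
H2bc18, the H2B gene shown above with an octamer, stood at 56.8, 71.4 and 72.0 CPM against 56.3, 79.9 and 45.9 CPM, with a log2 fold change of -0.14. H2bc4 (-0.12) and H2bc12 (-0.24) were also below 0. H2bc21 varied least of all members, at 10.6, 11.8 and 10.5 CPM against 9.95, 11.4 and 9.89 CPM, a highest-to-lowest ratio of 1.19 where the median member had 1.97. It is named here because of that value. It is also 1 of the 20 genes in which the exact stem-loop motif was not found. Others of these 20 lay on either side of the median member, such as H2ac13 (2.86) and H1f1 (1.71). A link was not tested.

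There were 9 pairs of an H2A and an H2B gene that start within 500 bases of each other in opposite directions. H2ac15 and H2bc15 start 164 bases apart, and their log2 fold changes were -0.05 and -0.52. H2ac22 and H2bc22 start 240 bases apart, with 0.19 and -0.41. H2ac13 and H2bc13 start 229 bases apart, with -0.19 and -0.17. The H2A gene was also the lower one for H2ac12 and H2bc12 (-0.36 and -0.24) and for H2ac11 and H2bc11 (-0.43 and -0.21). The H2B gene was the lower one for H2ac8 and H2bc8 (-0.08 and -0.18) and for H2ac7 and H2bc7 (-0.23 and -0.41). The pairs of H2ac23 with H2bc23 and of H2ac1 with H2bc1 had too few counts for a fold change. The differences within pairs were not tested.

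H3 and H4 form the inner tetramer of the nucleosome. The H3 class was balanced, with 6 genes on each side of 0 and a median near 0 (-0.003). H3c11 stood at 29.4, 47.9 and 48.5 CPM in the controls and 40.2, 54.5 and 31.3 CPM in the knockdowns, with a log2 fold change near 0 (0.002, SE 0.22). H3c10 gave -0.02 and H3c13 -0.13, both within 1 SE of 0. H3c14 and H3c15 had the smallest H3 p values, at -0.85 (unadjusted p = 0.098) and -0.63 (unadjusted p = 0.336), but rested on 7 to 13 and 3 to 18 counts per library.

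H4 had the highest summed FPKM of the 5 classes in each library and a median log2 fold change of 0.04, with 7 genes above 0 and 5 below. H4c4 stood at 118, 154 and 132 CPM in the controls and 153, 170 and 80.1 CPM in the knockdowns. Knockdown 2 was the highest library and knockdown 3 the lowest, and the log2 fold change was -0.01 (SE 0.22). H4c8 stood at 68.2, 126 and 93.8 CPM against 122, 148 and 70.5 CPM, with a log2 fold change of 0.24 (unadjusted p = 0.361). H4c3 gave 0.13, H4c12 0.15, H4c17 -0.01 and H4c18 -0.14.

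Libraries of the same group differed from each other in the same direction across many members. Knockdown 2 was the highest of the 6 libraries for 43 of 57 members (75.4%), against 15.4% of all genes tested. Knockdown 3 was the lowest for 36 members (63.2%), against 17.3% of all genes. For H2B the lowest library was knockdown 1 in 10 of 14 genes, and for H4 knockdown 1 was the lowest in 0 of 12. Over all genes tested, knockdown 1 was the lowest for 19.3%. With libraries set side by side by their number, which the labels do not tie to a culture, the knockdown was lower for 29 of 57 members at number 1, 5 at number 2 and 56 at number 3, where all genes gave 52.6%, 49.7% and 50.5%.

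**Figure D3:**
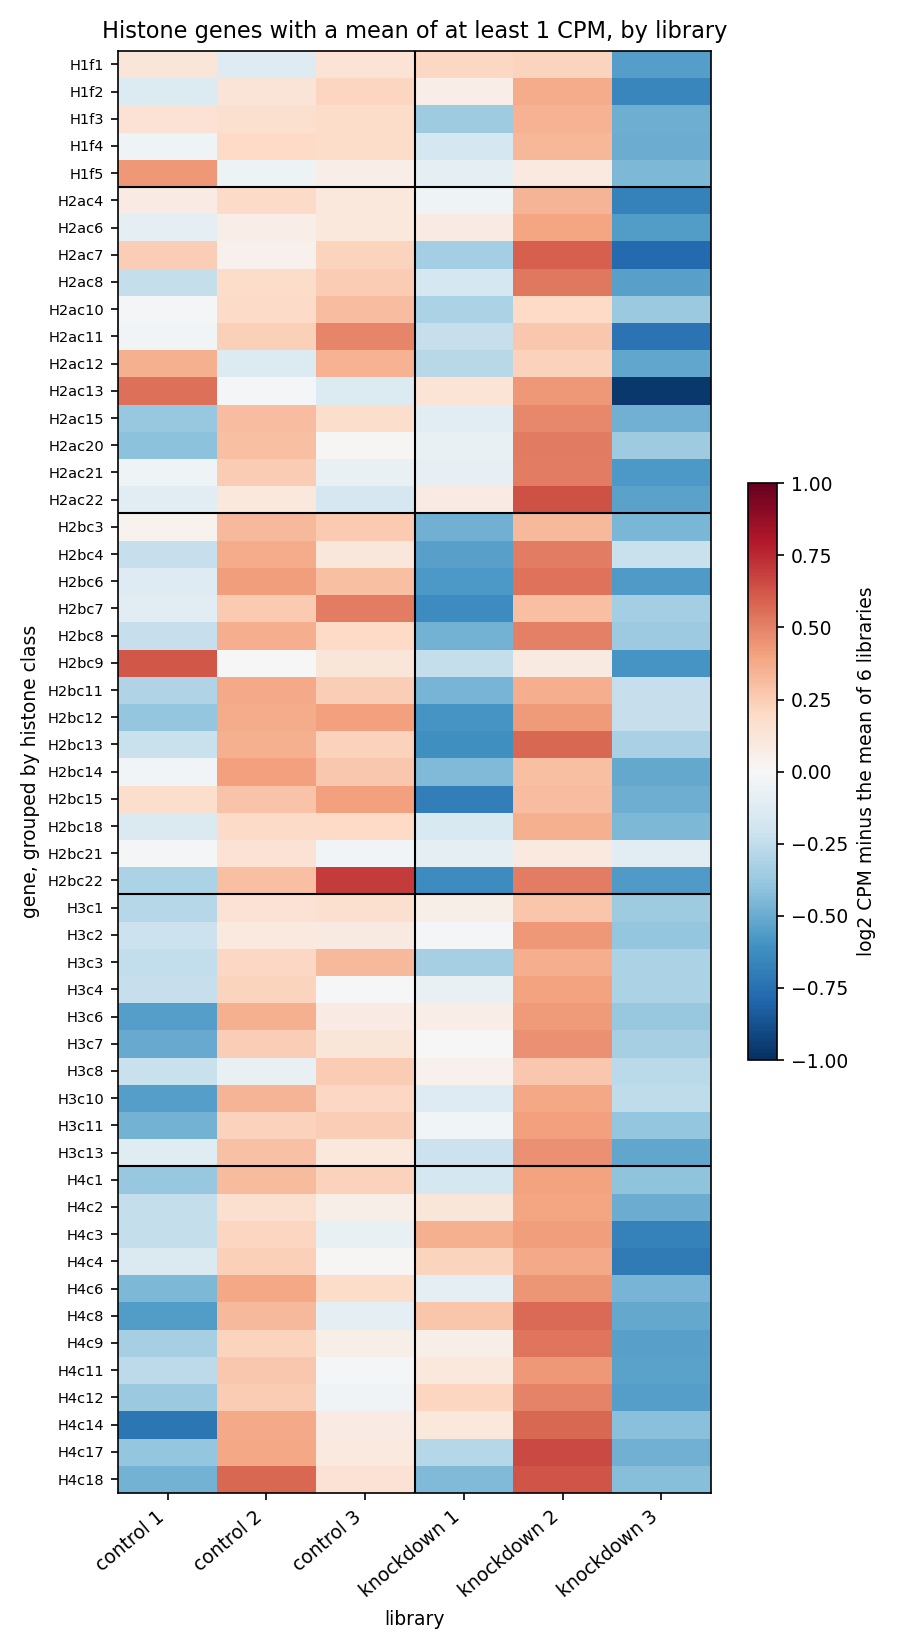
Log2 CPM of each histone gene with a mean of at least 1 CPM, minus its mean over the 6 libraries; rows are genes grouped by class, columns are libraries, red is higher and blue lower. Knockdown 2 is red and knockdown 3 blue in most rows, while knockdown 1 is blue in most H2B rows and not in most H4 rows.

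The balance between H4 and H2B genes differed most in 1 library. The summed CPM of H4 genes over that of H2B genes was 1.72, 2.02 and 1.75 in the controls and 3.07, 2.16 and 1.84 in the knockdowns. Knockdown 1 stood apart from the other 5 libraries. The same ratio on the deposited FPKM scale was 2.39, 2.62 and 2.29 against 3.99, 2.85 and 2.58, again with knockdown 1 highest. Another ratio had its extreme in a control. Summed CPM of H1 genes over that of H4 genes was 0.587, 0.397 and 0.495 in the controls and 0.379, 0.399 and 0.451 in the knockdowns, highest in control 1. These ratios were seen in the data and then described, and they were not tested.

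Levels per transcript length (FPKM) gave a different order of members from counts. H2ac18 had the highest mean FPKM of the 62 genes, at 443, 819 and 824 FPKM in the controls and 306, 873 and 353 FPKM in the knockdowns, but only 3 to 15 counts per library. H2ac19, H2ac23, H2ac24, H2bc23, H3c14 and H3c15 were likewise under 1 CPM on average, with mean FPKM of 45.4 to 199.7. The 9 members under 1 CPM held 17.9% of the summed mean FPKM. H2ac1 and H2bc1, known as testis histone genes, were low on both scales, at 0.05 and 1.00 FPKM.

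**Figure D4:**
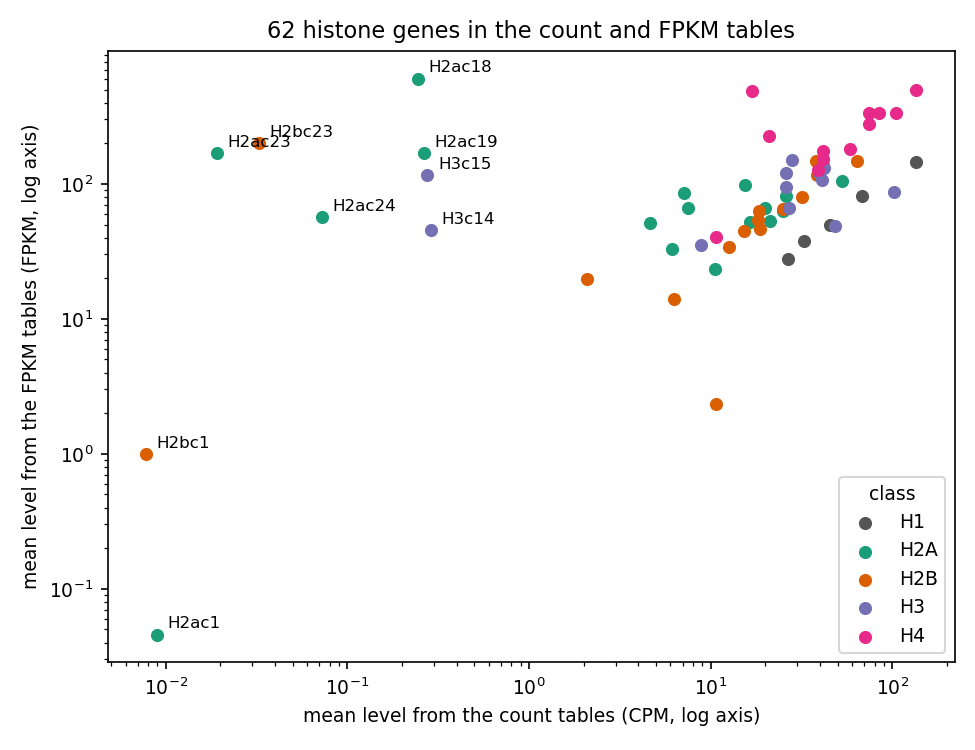
Mean level over the 6 libraries from the count tables (CPM) and from the FPKM tables, both on log axes, with 1 point per histone gene coloured by class; genes under 1 CPM are named. H2ac18 has the highest FPKM of all 62 genes at 0.246 CPM.

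Near-identical copies may bear on these values, but their part was not tested. Of all 150-base stretches of the members' transcripts, the length of 1 read, 100% were shared with another gene for H2ac19 and H3c14, 87.0% for H2ac18, 91.5% for H2ac23 and 92.4% for H2bc23. Over 50% were shared for 20 members, and none for 12, among them H4c4, H4c14 and H2bc21. Wide sharing was not limited to members with few counts. H3c10 had 90.5% shared with 1077 to 1927 counts per library, and H4c17 had 85.8% with 599 to 1099. No source used here gives how either table treated reads that match several copies, so the level of 1 copy is uncertain. H2ac18 is an example: its log2 fold change was 0.65 from counts (SE 0.60) and -0.56 from FPKM. H2ac1 and H2bc1 also overlap Gm33516, and H2bc6 overlaps Gm33387.

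The genes that make and remove histone messages showed no call. Of 24 genes for 3′ end processing, decay and transcription, 0 passed the threshold, 9 were above the control mean and 15 below, with a median of -0.02. Slbp, the stem-loop binding protein, stood at 42.7, 27.2 and 33.5 CPM in the controls and 40.5, 30.5 and 30.2 CPM in the knockdowns. Lsm11, a U7 particle protein, had the smallest p of the list (log2 fold change 0.16, unadjusted p = 0.119), and Sympk, a cleavage scaffold, was the most abundant (-0.01). Npat, the transcriptional coactivator of histone genes, gave -0.02.

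Replacement histones and chaperones likewise gave 0 calls. The 11 replacement histone genes had a median near 0 (-0.0004), with 5 above and 6 below. H3f3b, which encodes H3.3, stood at 517, 474 and 470 CPM against 578, 514 and 428 CPM, and H1f10 gave -0.16 (unadjusted p = 0.445). Of 17 tested histone chaperone genes, 12 were below and the median was -0.03, with Atrx at -0.08 and Rbbp7 at 0.12.

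Cell-cycle genes had another order of libraries than the histone genes. The mean deviation of the histone genes from their 6-library mean, on a log2 CPM scale, was -0.16, 0.24 and 0.16 in the controls and -0.18, 0.41 and -0.47 in the knockdowns. DNA replication genes had 0.11, -0.07 and 0.14 against 0.05, -0.10 and -0.14. Mitosis genes had 0.36, -0.19 and 0.14 against 0.05, -0.18 and -0.18. Control 1 was the highest library for mitosis genes and below average for histone genes, and knockdown 2 was the highest for histone genes and below average for both cell-cycle lists.
Of 23 tested DNA replication genes 18 were below the control mean (median -0.10), and of 19 mitosis genes 18 (median -0.27), with 0 called in either. Tk1, a thymidine kinase of S phase, stood at 4.88, 5.76 and 6.80 CPM against 4.32, 3.22 and 3.68 CPM, with a log2 fold change of -0.63 (unadjusted p = 0.010). Bub1b, a spindle checkpoint kinase, gave -0.35 (unadjusted p = 0.024), Mki67 -0.33 and Rrm1 -0.17.

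On average, other RNAs that lack poly(A) tails had the same highest library as the histone genes. The 8 genes of that list had mean deviations of -0.63, 0.28 and 0.20 in the controls and 0.15, 0.54 and -0.54 in the knockdowns. By this measure knockdown 2 was again the highest library, with control 1 and knockdown 3 the lowest. Knockdown 1 was above average here but below average for histone genes. By summed CPM knockdown 2 (18006) was also the highest and knockdown 3 (7865) the lowest. Control 1 was then not among the lowest, at 14475 CPM against 11812 CPM in control 3. Rn7sk, which holds the elongation factor P-TEFb inactive, stood at 9558, 6742 and 5464 CPM against 8070, 7927 and 3362 CPM, highest in control 1. Rnu11, a minor spliceosome RNA, gave -0.55 (unadjusted p = 0.259). The ribosomal RNA gene Rn28s1 took 4.02%, 2.90% and 2.98% of counts in the controls and 4.49%, 3.17% and 1.01% in the knockdowns. It was lowest in knockdown 3, as the histone genes were. Its highest values were in knockdown 1 and control 1, where histone genes were below average, and not in knockdown 2. Some lists of other genes shared a highest or lowest library with the histone genes. Knockdown 2 was also the highest for fibroblast and mural cell markers (mean deviation 0.31) and red blood cell genes (0.79). Knockdown 3 was also the lowest for replacement histones (-0.22), DNA replication genes (-0.14) and microglia markers (-0.12). The part of the RNAs without poly(A) tails in the histone values was not tested.

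**Figure D5:**
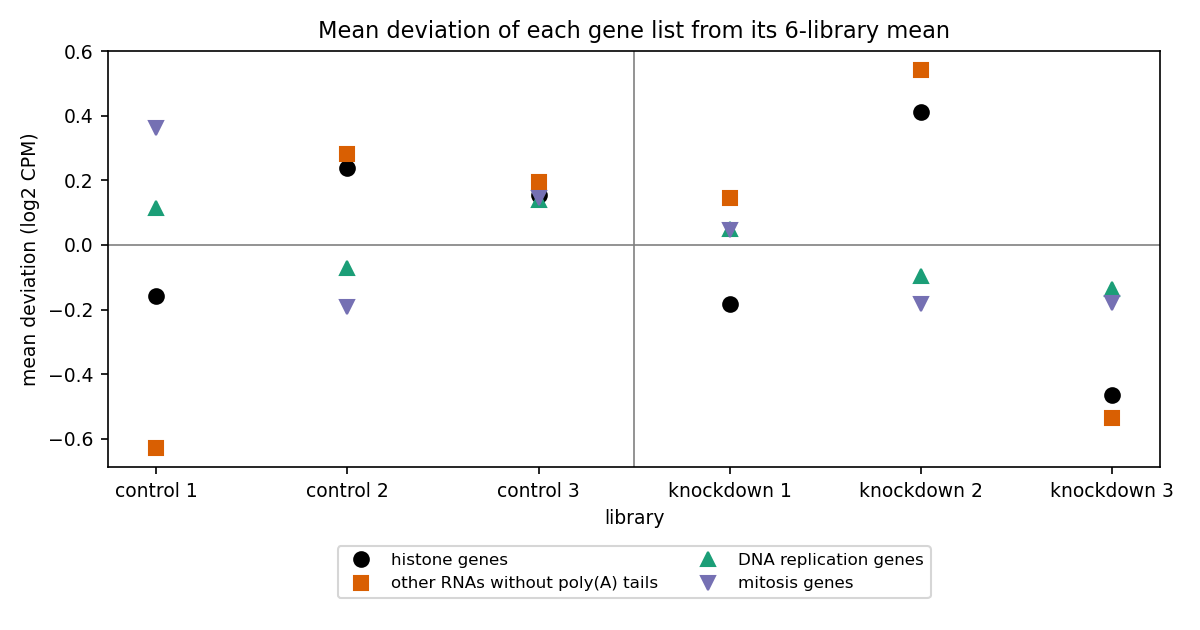
Mean deviation (log2 CPM) of 4 gene lists from their 6-library mean, with 1 symbol per list in each library. Histone genes and other RNAs without poly(A) tails are both highest in knockdown 2 and both low in knockdown 3, whereas mitosis genes are highest in control 1.

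Markers of the other cell types gave 0 calls. All 5 oligodendrocyte precursor markers were below the control mean (median -0.33), with Sox10 at -0.45 (unadjusted p = 0.018) and Olig1 at -0.16, and their sum ranged over 183 to 292 CPM in the controls and 172 to 239 CPM in the knockdowns. Radial glia and progenitor markers had a median of -0.02, with Vim at 0.07 and Slc1a3 at -0.09. Neuron markers had a median near 0, with Tubb3 at 0.05 and Rbfox3 at -0.12, and dopamine neuron markers one of -0.04, with En1 at -0.05. Microglia markers summed to 26.1 to 31.7 CPM over all libraries, with Aif1 at 0. Of 7 tested microglia markers 2 were above the control mean and 5 below (median -0.20), from Csf1r at 0.17 to Cd68 at -0.39 (unadjusted p = 0.033). Fibroblast and mural cell markers summed to 54.2 to 71.9 CPM. Of 4 tested, 3 were above and 1 below (median 0.24), with Col1a1 at 0.35 (unadjusted p = 0.041), Col1a2 at 0.20 and Pdgfrb at -0.08. Red blood cell genes summed to 8.81 to 26.9 CPM, and all 3 tested were above (median 0.42), with Hbb-bs at 0.72 and Hba-a1 at 0.29. The part of these cell types in the histone values was not tested.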

How the data were processed

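Gene counts per library, which the authors deposited without normalization, and FPKM values, which the authors deposited per gene, were used for 6 libraries. Per the submitters' processing notes, bcl2fastq 2.20, Cufflinks 2.2.1 and DESeq2 were among the tools and GRCm38 (mm10) was the build. No source used here names the aligner, the counter or whether counting used strand.

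Counts were filtered with filterByExpr, scaled by TMM and tested with edgeR 4.0.16 (quasi-likelihood, group only) in R 4.3.3, with Benjamini-Hochberg adjustment over all genes at 0.05. Alternatives used DESeq2 1.42.0, limma 3.58.1 (voom, and log2 FPKM with a pseudocount of 0.1 or 1), other scalings and filters, a replicate block, and each library left out. Log2 CPM used a prior count of 2. All 62 members had the same position in the FPKM tables as in RefSeq GRCm38.p6.

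The members and lists were chosen with earlier results of these data known. Named genes were, in each class, the 3 with the highest FPKM, the 2 with the smallest p for the knockdown and the 2 with the smallest p for the replicate number, and in each other list the most abundant gene and that with the smallest p.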

Additional observations from a re-analysis of the deposited data

How the results depend on the processing

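The 3 libraries per group and their spread set the precision. Over 17 alternatives for the knockdown, 0 histone genes were called under each. Over all genes the count was 11 without a filter on low counts and 1 with DESeq2. Leaving out each library in turn gave 22 to 55 of 57 members below the control, 22 of them without knockdown 3, and a median log2 fold change of -0.43 to 0.07. Unadjusted p was under 0.05 for 27 of 57 members without knockdown 2 (2.26% of all genes), 13 of 62 without a filter (2.07%) and 7 of 57 with the replicate block (1.48%). With a replicate block, 0 genes and 0 members were called and 40 members were below (median -0.13). Same-numbered libraries correlated at 0.22, 0.23 and 0.04 in their deviations from the group means, and different-numbered ones at -0.26 to 0.07. Because 1 of 3 same-number values was not over 0.1, the numbers were not treated as pairs. Of the 6 libraries, 4 correlated best with their own number, a hint from the data that no label backs. Tested as a term, the replicate number called 27 genes (0.155%) and 0 members. That became 741 genes and 32 members without a filter, 225 and 7 with DESeq2, 73 and 1 without the group term, and 45 to 524 genes and 0 to 36 members with 1 library left out; the cause was not tested.

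Single genes near 0 changed sign. H3c11 gave -0.00254 with library totals and -0.0643 or -0.0638 with FPKM at either pseudocount, H4c4 0.00188 and Sympk 0.00243 without a filter, and H3c10 0.00742 with voom, 0.00607 with the replicate block and 0.00273 or 0.0026 with FPKM. H2ac18 gave -0.56 or -0.55 and H2ac19 0.13 with FPKM. With 1 library left out, log2 fold changes ranged as follows: Atrx -0.20 to 0.22, En1 -0.11 to 0.0108, H1f10 -0.34 to 0.0869, H1f2 -0.33 to 0.16, H2ac13 -0.48 to 0.14, H2ac19 -0.91 to 0.0167, H2ac20 -0.20 to 0.27, H2bc18 -0.38 to 0.0393, H2bc4 -0.48 to 0.081, H3c10 -0.24 to 0.17, H3c11 -0.23 to 0.18, H3c13 -0.46 to 0.0671, H3f3b -0.0478 to 0.18, H4c12 -0.0865 to 0.40, H4c17 -0.45 to 0.20, H4c18 -0.58 to 0.16, H4c3 -0.0496 to 0.42, H4c4 -0.21 to 0.27, Mki67 -0.51 to 0.00746, Rn7sk -0.36 to 0.15, Slc1a3 -0.15 to 0.00309, Sympk -0.053 to 0.0798, Tubb3 -0.0953 to 0.15. The cause was not tested.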
